A study of Mus musculus with 18 samples.

Results

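Heat shock proteins and their J-domain partners form the chaperone system that folds, assembles and disposes of proteins. HSP70 proteins bind stretches of unfolded protein in a cycle driven by ATP, J proteins (the Dnaj genes) bring clients to HSP70 and start ATP hydrolysis, HSP110 proteins release the nucleotide, and HSP90, the HSP60/HSP10 chaperonin and the small HSPs act beside them. Male germ cells make their own forms of several of these proteins, among them the HSP70 genes Hspa2 and Hspa1l, while spermatids build the acrosome and the flagellum and repack their chromatin.

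The chaperone genes were taken from the count table by symbol: Hspa, Hspb and Dnaja, Dnajb or Dnajc followed by a number, any Hsp90 gene, and Hsph1, Hspd1 and Hspe1. Symbols ending in -ps, which mark pseudogenes, were left out. This gave 72 of the 54232 genes in the table: 11 HSP70, 3 HSP110, 3 HSP90, 2 HSP60/HSP10, 8 small HSP, 4 J-protein A, 13 J-protein B and 28 J-protein C genes. Hspa2 and Hspa1l are described apart from the rest. The members and the gene lists were chosen with earlier results of these data known.

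RNA was measured in round spermatids (RS), the haploid cells that follow meiosis, isolated on BSA gradients from testes of mice 75 to 85 days old. WT, KO and KI gave 6 libraries each, made from total RNA without selection of polyadenylated RNA. KO mice lack GRTH, the testis RNA helicase made from Ddx25, and in KI mice a human GRTH gene with a missense mutation yields protein without its phosphorylated form. The comparisons ask how the loss of GRTH, or of its phosphorylated form, changes the RNA of these cells.

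Between 18766971 and 26776555 reads were counted on genes in each library, and p-values measure the spread between these libraries. Levels are given as CPM, the depth-scaled count of edgeR, with TMM factors that bring libraries to a common effective size. Comparisons between genes are made on CPM per kb of exon. Ddx25 (ENSMUSG00000032101, chr9:35536647-35558528, minus strand of GRCm38) lay at 537 to 606 CPM (median 563) in WT, at 47.7 to 90.7 CPM (median 72.1) in KO and at 0.0456 to 0.518 CPM in 5 of the KI libraries. The sixth, the library labelled KI 4, held 56.8 CPM, which lies inside the KO range and goes against its label. Counts in KI are given with and without that library. Its log2 fold change over all libraries was -3.02 ± 0.95 (SE) in KO and -5.86 ± 1.09 in KI, and -10.85 in KI without the library labelled KI 4. Several libraries also stood closer to one another than others of their genotype (WT 1 and 2, WT 3 and 4, WT 5 and 6, KO 4 and 5, KI 1 and 2, KI 3 and 5, and KO 2 with the library labelled KI 4). They may not be separate animals or cell preparations, in which case the p-values would be too small. Results that lose their call when such pairs are summed are named. Summing leaves fewer units per genotype, so a lost call does not show that there was no change.

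In WT, Hspa2 was the highest member per length, at 692 CPM per kb. It was followed by Hsp90aa1, a cytosolic HSP90 (582 CPM per kb), Dnajb3, a spermatid J protein (518 CPM per kb), Hspb9, a testis small HSP (324 CPM per kb), Hspa1l (235 CPM per kb) and Dnajb8, a testis J protein (178 CPM per kb). Germ cell forms thus held 5 of the 6 highest places. The classical stress-induced HSP70 genes stood near the bottom, with Hspa1a at 0.393 CPM per kb (place 66 of 72) and Hspa1b at 0.11 CPM per kb (place 70). These genes are nearly identical copies of one another, so the counts and places of both are uncertain. Together the 72 members took 13126 ± 415 CPM in WT (SD, n = 6), 12379 ± 1643 CPM in KO and 11952 ± 2660 CPM in KI. The KI libraries were the most spread, from 9068 CPM in KI 3 to 15469 CPM in KI 2. Hspa2 alone made up 13.9% of the members' CPM in WT on average, 16.4% in KO and 17.1% in KI.

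Promoter sequences are given for members on which the results turn. RefSeq windows on GRCm38.p6, from 250 bases before to 50 bases after each start, were found for 58 of the 72 members. Hspa1l and Dnajb8 are shown because they fell most. Both runs cover the 150 bases before the start on the plus strand, at chr17:34972553-34972702 for Hspa1l and at chr6:88222118-88222267 for Dnajb8. Capitals in Hspa1l mark TGACGTNA, a cAMP response element with 1 free base, the kind of site bound by CREB and CREM.
Hspa1l: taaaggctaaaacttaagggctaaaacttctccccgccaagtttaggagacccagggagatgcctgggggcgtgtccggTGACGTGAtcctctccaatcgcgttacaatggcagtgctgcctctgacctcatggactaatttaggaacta
Dnajb8: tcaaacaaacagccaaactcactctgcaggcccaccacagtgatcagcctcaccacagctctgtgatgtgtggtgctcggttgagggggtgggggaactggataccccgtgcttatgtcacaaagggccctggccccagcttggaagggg

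On either strand, TGACGTNA was present in 2.93% of all 32851 windows, and so for 3.36% of the 27025 symbols with a window. Among the 58 members it was found for 3 (5.17%), namely Hspa1l, Hspa5 and Dnajc27. The full form TGACGTCA, which the looser motif includes, was in 1.79% of windows (2.03% of symbols). Among members it was in the window of Dnajc27 (1.72% of members). None of the searched motifs lies in the Dnajb8 window, which says only that these letters are not in it.

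ER chaperones are induced through the ER stress response element, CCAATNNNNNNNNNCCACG, which is bound by ATF6 and NF-Y. It was found in 0.119% of all windows, and so for 0.137% of symbols. Among members it was in the windows of 3 (5.17%): Hsp90b1, Dnajc3 and Hspa5. These stretches are shown since Hsp90b1 and Dnajc3 rose in KO, with the element in capitals on the gene's strand. Hsp90b1 holds it in both orientations, at chr10:86705633-86705661 and chr10:86705528-86705556 on the minus strand, Dnajc3 at chr14:118937822-118937850 and Hspa5 at chr2:34772020-34772048 on the plus strand.
Hsp90b1, distal: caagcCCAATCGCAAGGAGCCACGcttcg
Hsp90b1, proximal: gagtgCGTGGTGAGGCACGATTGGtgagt
Dnajc3: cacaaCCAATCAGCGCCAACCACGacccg
Hspa5: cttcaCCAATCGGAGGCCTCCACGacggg

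The other element of the unfolded protein response, TGACGTGG, was in 0.676% of windows (0.714% of symbols) and in that of 1 member, Dnajc25 (1.72% of members). The heat shock element, to which heat shock factors bind, was searched as GAANNTTC or TTCNNGAA. It was present in 15.1% of all windows, and in those of 16 of the 58 members (27.6%, against 16.97% of the 27025 symbols with a window). Its longer form of 3 units, GAANNTTCNNGAA or TTCNNGAANNTTC, was in 0.603% of windows (0.662% of symbols). Among members it was in the windows of 4 (6.90%), Hspd1, Hspe1, Hsph1 and Dnajb6. Hspd1 and Hspe1, the subunits of the mitochondrial chaperonin, are read in opposite directions from a shared promoter, and the element between them is shown from the Hspd1 strand (minus) at chr1:55088053-55088082, with 2 overlapping matches in capitals.
Hspd1: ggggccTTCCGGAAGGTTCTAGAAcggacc

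Of the 72 members, 69 passed the low-count filter, and Hspb2, Hspb3 and Hspb8, 3 small HSPs best known from muscle and heart, did not. Their highest level in any library was 0.274 CPM, for Hspb2 in a WT library. In KO, 13 of the 69 members rose against WT (18.8%) and 16 fell (23.2%). Among all 21058 genes tested, 16.4% rose and 13.5% fell by the same rule, edgeR's quasi-likelihood test with an adjusted p under 0.1. In KI, 11 members rose (15.9%, against 16.1% of all genes) and 17 fell (24.6%, against 15.4%), and without the library labelled KI 4 these were 11 and 16. Past a change of 1 log2 unit, 2 members fell in KO and 2 in KI, Hspa1l and Dnajb8 each time, and 0 rose. All genes gave 1.13% lower and 0.598% higher past 1 log2 unit in KO, and 1.43% lower and 0.522% higher in KI. The median log2 fold change of the members was 0.01 in KO (0.03 over all genes) and 0.04 in KI (0.05 over all genes), so the members' median lay close to that of all genes. Of the called members, 18 of 29 in KO (62.1%) and 13 of 28 in KI (46.4%) did not overlap with WT, against 43.1% and 43.8% of all called genes.

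When the close pairs of libraries were summed and the library labelled KI 4 was left out, 6 members rose and 8 fell in KO, and 2 rose and 9 fell in KI. In that fit 7.94% of all 23982 genes tested rose and 7.62% fell in KO, and 5.32% rose and 6.87% fell in KI. Dnajb8 was then the 1 member past 1 log2 unit in either genotype, where 0.742% of all genes were lower in KO and 0.688% in KI. The members that were still lower in KO were Dnajb3, Dnajb4, Dnajb8, Dnajb9, Dnajc19, Dnajc5b, Dnajc9 and Hspa1l, and those still higher were Dnajb11, Dnajc14, Dnajc28, Dnajc3, Dnajc5 and Dnajc6. In KI the members still lower were Dnaja4, Dnajb3, Dnajb4, Dnajb8, Dnajb9, Dnajc19, Dnajc5b, Dnajc9 and Hspa1l, and those still higher were Dnajc28 and Dnajc6. In bulk RNA of this kind, fewer cells of a type and less RNA per cell cannot be told apart.

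**Figure D1:**
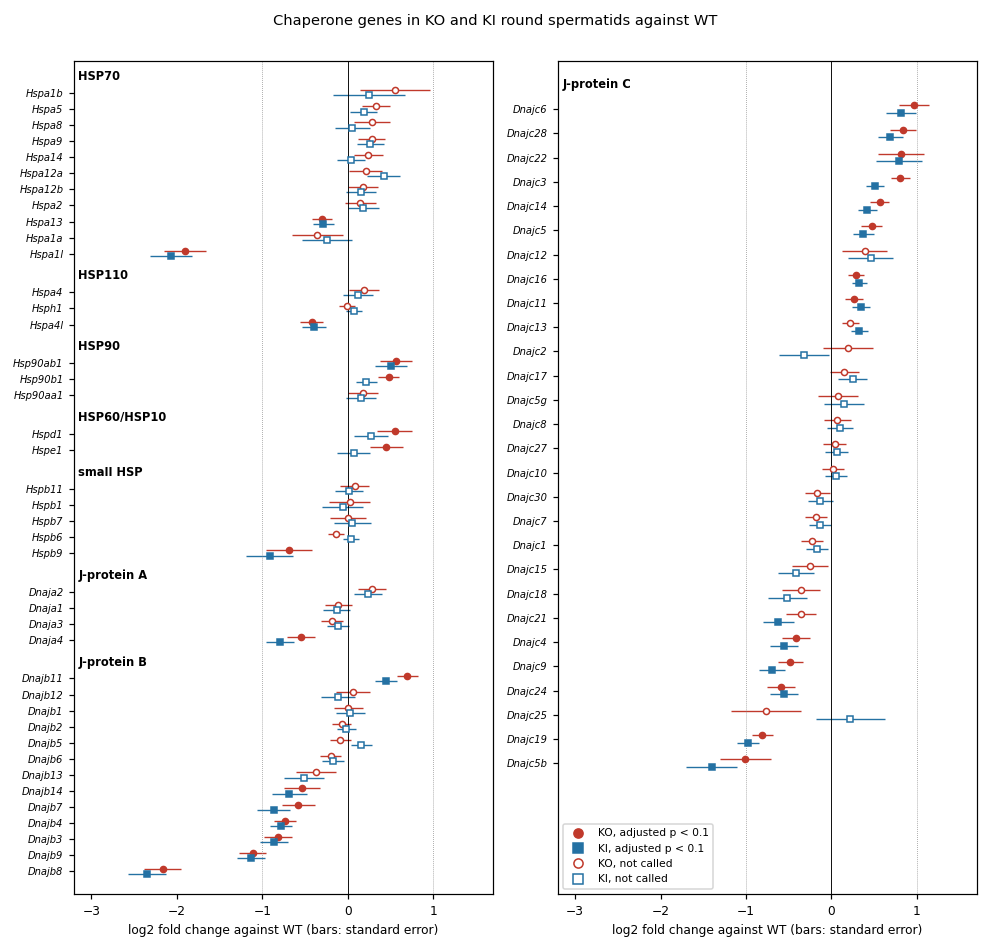
Log2 fold change against WT of the 69 tested members, by family, in KO (circles) and KI (squares), with standard errors as bars; filled symbols passed an adjusted p of 0.1 for any change. Hspa1l and Dnajb8 lie near or below -2 in both genotypes, most J-protein B genes lie below 0, and no member reaches 1.

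Both testis HSP70 genes were abundant in WT, and Hspa1l fell while Hspa2 was not called. Hspa2 (ENSMUSG00000059970, chr12:76404176-76406938, plus strand of GRCm38), which is required for male meiosis and stays in spermatids, lay at 1515 to 2180.0 CPM (median 1766) in WT, 1617 to 2403 CPM (median 2028) in KO and 1439 to 2840.2 CPM (median 1947) in KI. The ranges of the 3 genotypes overlapped, and the widest was that of KI, where KI 1 (2823 CPM) and KI 2 (2840.2 CPM) stood high and KI 3 (1439 CPM) and KI 5 (1454 CPM) low. Its log2 fold change was 0.15 ± 0.18 in KO (SE, adjusted p = 0.621) and 0.18 ± 0.18 in KI (adjusted p = 0.514), so no change was called.

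Hspa1l (ENSMUSG00000007033, chr17:34972703-34979285, plus strand of GRCm38), the HSP70 of spermatids, lies next to Hspa1a and Hspa1b and has 1 coding exon. Its level was 465 to 715 CPM (median 553) in WT, 47.5 to 211 CPM (median 168) in KO and 108 to 164 CPM (median 139.6) in KI. Every KO and KI library was below the lowest WT library, and KO 3 was the lowest of all at 47.5 CPM. The log2 fold change was -1.91 ± 0.24 in KO (SE, adjusted p = 5.36e-06 for any change and 0.0362 past 1 log2 unit) and -2.07 ± 0.25 in KI (adjusted p = 1.63e-06 and 0.00829). Past 1 log2 unit the call was lost in KO without KO 2 (log2 fold change -1.86, adjusted p = 0.1003), and in both genotypes with close pairs summed (adjusted p = 0.191 in KO and 0.495 in KI), while the fall of any amount was still called (adjusted p = 0.000563 and 0.00322). An antisense gene, Gm10501, shares 1778 exon bases with Hspa1l on the other strand, and the counts were made by strand.

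The direct comparison of KI with KO gave 0.03 ± 0.18 for Hspa2 (SE, adjusted p = 0.99) and -0.16 ± 0.24 for Hspa1l (adjusted p = 0.962), with neither called. Without the library labelled KI 4 these were 0.04 ± 0.19 and -0.15 ± 0.26.

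Of the 10 members listed as testis chaperones, 7 fell and 0 rose in KO. The same counts were found in KI, with and without the library labelled KI 4. Among all genes 13.5% fell and 16.4% rose in KO, and 15.4% and 16.1% in KI. With close pairs summed, 4 of the list fell in KO and 4 in KI, against 7.62% and 6.87% of all genes. The list was Hspa2, Hspa1l, Hspa4l, Hspb9, Dnajb3, Dnajb7, Dnajb8, Dnajb13, Dnajc5b and Dnajc5g. Its median log2 fold change was -0.63 in KO and -0.87 in KI, against 0.03 and 0.05 over all genes. DESeq2 likewise called 0 of them higher. Its summed level was 4552 to 5376 CPM in WT, 2708 to 4555 CPM in KO and 2803 to 5017 CPM in KI, and the largest single part of it was Hspa2, which was not called.

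**Figure D2:**
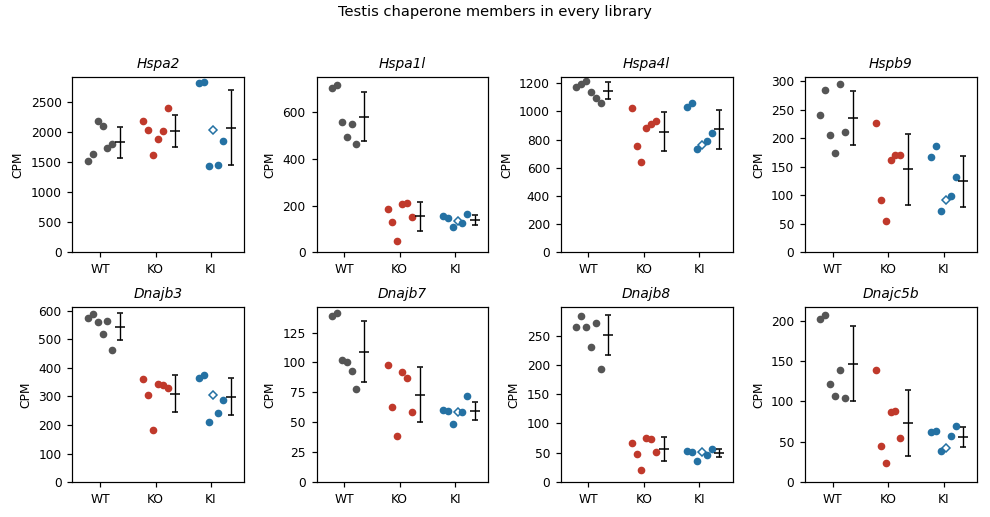
Level (CPM) of 8 testis chaperone genes in each of the 6 WT, 6 KO and 6 KI libraries, with the mean and SD as black bars; the open diamond is the library labelled KI 4. Hspa1l, Dnajb3 and Dnajb8 do not overlap between WT and the other genotypes, whereas Hspa2 does.

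Dnajb8 (ENSMUSG00000048206, chr6:88222268-88254415, plus strand of GRCm38), a testis J protein that keeps aggregation-prone proteins soluble, changed most of all members. It lay at 193 to 284 CPM (median 264) in WT, 20.6 to 74.5 CPM (median 59.2) in KO and 36.4 to 56.9 CPM (median 52.1) in KI, with no overlap with WT. This gave a log2 fold change of -2.17 ± 0.22 in KO (SE, adjusted p = 0.00121 past 1 log2 unit) and -2.34 ± 0.22 in KI (adjusted p = 0.000205 past 1 log2 unit), and the call past 1 log2 unit was kept with close pairs summed (adjusted p = 0.0214 and 0.0635). An antisense gene, 1700031F10Rik, shares 525 of the 1411 exon bases of Dnajb8 on the other strand.

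Dnajb3 (ENSMUSG00000081984), a J protein of spermatids, lay at 464 to 590.1 CPM (median 562) in WT, 181 to 361 CPM (median 335) in KO and 212 to 375 CPM (median 297) in KI. Its libraries did not overlap with WT in either genotype, and KO 3 (181 CPM) stood apart below the other KO libraries. The log2 fold change was -0.81 ± 0.16 in KO (adjusted p = 0.000826) and -0.87 ± 0.16 in KI (adjusted p = 0.0004).

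Dnajb7 (ENSMUSG00000047108), another J protein with 1 coding exon, lay at 77.8 to 141 CPM (median 101) in WT, 38.8 to 97.9 CPM (median 74.9) in KO and 48.9 to 72.2 CPM (median 59.3) in KI. KO overlapped with WT and KI did not, and the log2 fold changes were -0.58 ± 0.19 (adjusted p = 0.0295) and -0.87 ± 0.19 (adjusted p = 0.00166). With close pairs summed these calls were lost (adjusted p = 0.109 and 0.111).

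The cysteine-string proteins are J proteins anchored to secretory vesicles, and testis has its own members. Dnajc5b (ENSMUSG00000027606) lay at 104 to 207 CPM (median 129.8) in WT, 24.2 to 139 CPM (median 70.9) in KO and 38.5 to 69.4 CPM (median 59.7) in KI. KI lay below WT without overlap, whereas KO 1 (139 CPM) reached into the WT range, and within WT the pair WT 1 and 2 was the highest. Its log2 fold change was -1.01 ± 0.29 in KO (adjusted p = 0.0154) and -1.40 ± 0.30 in KI (adjusted p = 0.00122). Dnajc5g, the other testis form, overlapped across all genotypes, with log2 fold changes of 0.08 ± 0.23 in KO and 0.15 ± 0.23 in KI (adjusted p = 0.865 in KO and 0.704 in KI).

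Hspb9 (ENSMUSG00000017832), the testis small HSP, lay at 174 to 295 CPM (median 226) in WT, 54.2 to 227 CPM (median 166) in KO and 72.3 to 186 CPM (median 116) in KI. The ranges overlapped, and its log2 fold change was -0.69 ± 0.27 in KO (adjusted p = 0.0718) and -0.91 ± 0.27 in KI (adjusted p = 0.0161). The KO call was lost without KO 2, KO 3, WT 1, WT 2 or WT 5, and both calls were lost with close pairs summed (adjusted p = 0.195 and 0.253). The other 4 small HSPs tested, Hspb1, Hspb6, Hspb7 and Hspb11, were not called in either genotype, with log2 fold changes between -0.14 and 0.08 in KO and between -0.06 and 0.05 in KI. They are named to account for the family, after their values were seen.

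Hspa4l (ENSMUSG00000025757), an HSP110 protein abundant in spermatocytes and spermatids, fell the least of the 7. It lay at 1058 to 1212 CPM (median 1156) in WT, 643 to 1022 CPM (median 894) in KO and 736 to 1061 CPM (median 818) in KI, where KI 2 at 1061 CPM stood just above the lowest WT library. KO lay below WT without overlap. The log2 fold change was -0.42 ± 0.14 in KO (adjusted p = 0.0274) and -0.40 ± 0.14 in KI (adjusted p = 0.036), and neither call was kept with close pairs summed (adjusted p = 0.182 and 0.427). Its relatives Hspa4 and Hsph1 were not called, at 0.19 ± 0.18 and -0.01 ± 0.10 in KO and 0.12 ± 0.18 and 0.08 ± 0.10 in KI. Dnajb13, a J protein of the radial spoke of the sperm flagellum, had log2 fold changes of -0.37 ± 0.23 in KO and -0.51 ± 0.23 in KI (adjusted p = 0.293 in KO and 0.122 in KI), with overlapping libraries. Its KI fall was called with only the genotypes compared (adjusted p = 0.0509), in the replicate block (adjusted p = 0.0678) and without KI 2, KO 1 or KO 3, so that 8 of the list then fell in KI.

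Cell type markers were read beside these genes, against 16.4% of all genes that rose and 13.5% that fell in KO. In KI these shares were 16.1% and 15.4%. All 11 elongating spermatid markers fell in KO and in KI, and their summed level was 18974 to 27148 CPM in WT, 2588 to 7395 CPM in KO and 3540 to 5097 CPM in KI. Of 11 round spermatid markers, 3 fell in KO and 7 in KI, and 0 rose, with sums of 1571 to 2202 CPM in WT, 1160 to 1921 CPM in KO and 1039 to 1538 CPM in KI. The spermatocyte sum stayed at 794 to 1068 CPM in WT, 862 to 1077 CPM in KO and 829.7 to 1220.5 CPM in KI. Somatic markers were low but not absent. The 7 Leydig markers, all higher in both genotypes, summed to 9.94 to 20.6 CPM in WT, 30.7 to 54.5 CPM in KO and 13.6 to 69.2 CPM in KI, and the 9 Sertoli markers to 16.4 to 36.3 CPM over all libraries. Of 9 tested spermatocyte markers 3 rose and 2 fell in KO and 2 rose and 1 fell in KI, and of 8 spermatogonia markers 2 rose in KO and 1 in KI. Sertoli markers fell in 1 and 2 of 9 cases, and macrophage markers rose in 2 and 3 of 7 and fell in 1 of 7 each time. Endothelial markers rose in 2 of 5 in both genotypes, and blood markers rose in 0 and 1 of 2 in KO and KI. In KI without the library labelled KI 4, 1 spermatocyte, 0 spermatogonia, 2 macrophage and 0 blood markers rose. With close pairs summed, 7.94% of all genes rose and 7.62% fell in KO, and 5.32% rose and 6.87% fell in KI. In that fit 11 elongating and 3 round spermatid markers fell in each genotype. Then 2 spermatocyte markers rose in KO and 1 in KI, 0 fell, and spermatogonia markers rose in 1 and 0 cases. Leydig markers rose in 7 of 7 in KO and 6 of 7 in KI, and macrophage markers in 0 and 2. Sertoli markers fell in 0 and 1 cases. The part of these shifts in the falls of the testis chaperones was not tested.

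Of the 10 testis members 6 have a single coding exon. Of the 10 members with 1 coding exon, 9 were tested, and 5 fell and 0 rose in each genotype. Among all genes 13.5% fell and 16.4% rose in KO, and 15.4% and 16.1% in KI. The median log2 fold change of the 9 was -0.58 in KO and -0.87 in KI. The 60 tested members with several coding exons gave 13 higher and 11 lower in KO (median 0.05), and 11 higher and 12 lower in KI (median 0.05). All 5 single-exon members that fell, Hspa1l, Hspb9, Dnajb3, Dnajb7 and Dnajb8, are testis members. With close pairs summed, Dnajb7 and Hspb9 lost their calls (adjusted p = 0.109 and 0.195 in KO, 0.111 and 0.253 in KI). Hspa1l, Dnajb3 and Dnajb8 kept theirs in both genotypes.

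Chaperones of the endoplasmic reticulum (ER) moved in both directions. The ER folds secreted and membrane proteins, with Hspa5 (BiP) as its HSP70 and Hsp90b1 (GRP94) as its HSP90. Hsp90b1 (ENSMUSG00000020048) lay at 407 to 593 CPM (median 466) in WT, 634 to 705 CPM (median 693) in KO and 453 to 645 CPM (median 586) in KI. Every KO library was above every WT library, and KI overlapped with WT. This gave a log2 fold change of 0.48 ± 0.12 in KO (adjusted p = 0.00715) and 0.22 ± 0.12 in KI (adjusted p = 0.225), and the KO call was lost with close pairs summed (adjusted p = 0.123). Hspa5 lay at 246 to 417 CPM (median 377) in WT, 390.2 to 516 CPM (median 434) in KO and 300.3 to 507 CPM (median 395) in KI. Its log2 fold change was 0.33 ± 0.16 in KO (adjusted p = 0.146) and 0.18 ± 0.16 in KI (adjusted p = 0.452), with WT 1 and WT 2 (258 and 246 CPM) below the other WT libraries, so no change was called.

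Dnajc3 (ENSMUSG00000022136, p58IPK), a J protein of the ER lumen induced by the unfolded protein response, lay at 28.8 to 40.1 CPM (median 32.5) in WT, 49.5 to 63.3 CPM (median 59.4) in KO and 40.7 to 56.6 CPM (median 48.3) in KI. Both genotypes were above WT without overlap. The log2 fold change was 0.81 ± 0.11 in KO (adjusted p = 1.01e-05) and 0.51 ± 0.11 in KI (adjusted p = 0.00129), the latter lost with close pairs summed (adjusted p = 0.113).

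Dnajb11 (ENSMUSG00000004460, ERdj3), the J protein that delivers unfolded proteins to BiP, lay at 33.7 to 41.7 CPM (median 39.2) in WT, 52.4 to 69.03 CPM (median 63.1) in KO and 38.7 to 66.4 CPM (median 51.8) in KI. KO did not overlap with WT, and KI did through KI 3 (38.7 CPM). Its log2 fold change was 0.70 ± 0.12 in KO (adjusted p = 0.000261) and 0.45 ± 0.12 in KI (adjusted p = 0.0103), the latter lost with close pairs summed (adjusted p = 0.191).

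Dnajb9 (ENSMUSG00000014905, ERdj4), an ER J protein that is a target of XBP1 and takes part in degradation of ER proteins, moved the other way. It lay at 115 to 205 CPM (median 154) in WT, 55.1 to 86.9 CPM (median 71.7) in KO and 59.1 to 84.1 CPM (median 70.9) in KI, with no overlap with WT. This gave a log2 fold change of -1.11 ± 0.16 in KO (adjusted p = 2.33e-05) and -1.13 ± 0.16 in KI (adjusted p = 1.63e-05), which did not pass the test of 1 log2 unit. Within WT it was itself uneven, with WT 1 and WT 2 at 116 and 115 CPM and WT 3 and WT 4 at 205 and 197 CPM. Its promoter window held none of the searched motifs.

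The 16 other genes of ER folding and the unfolded protein response showed the same mixture. In KO, 4 rose and 3 fell, and in KI 1 rose and 3 fell, with or without the library labelled KI 4. Among all genes 16.4% rose and 13.5% fell in KO, and 16.1% and 15.4% in KI. With close pairs summed, 1 of the 16 rose and 1 fell in KO, and 0 rose and 2 fell in KI. The shares of all genes were then 7.94% higher and 7.62% lower in KO, and 5.32% and 6.87% in KI. Herpud1, an ER membrane protein of the degradation pathway and itself a target of the response, was the 1 gene past 1 log2 unit. It lay at 139 to 180.3 CPM (median 158) in WT, 38.8 to 60.3 CPM (median 53.1) in KO and 45.9 to 61.5 CPM (median 52.5) in KI, with log2 fold changes of -1.62 ± 0.12 (adjusted p = 0.00133 past 1 log2 unit) and -1.60 ± 0.12 (adjusted p = 0.00169). The call past 1 log2 unit was lost in KI with close pairs summed (adjusted p = 0.214). Of the 3 testis ER chaperones, Calr3, a calreticulin of male germ cells, fell in both genotypes (-0.60 ± 0.16 in KO and -0.83 ± 0.16 in KI, adjusted p = 0.00724 in KO and 0.000422 in KI), and 0 rose.

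**Figure D3:**
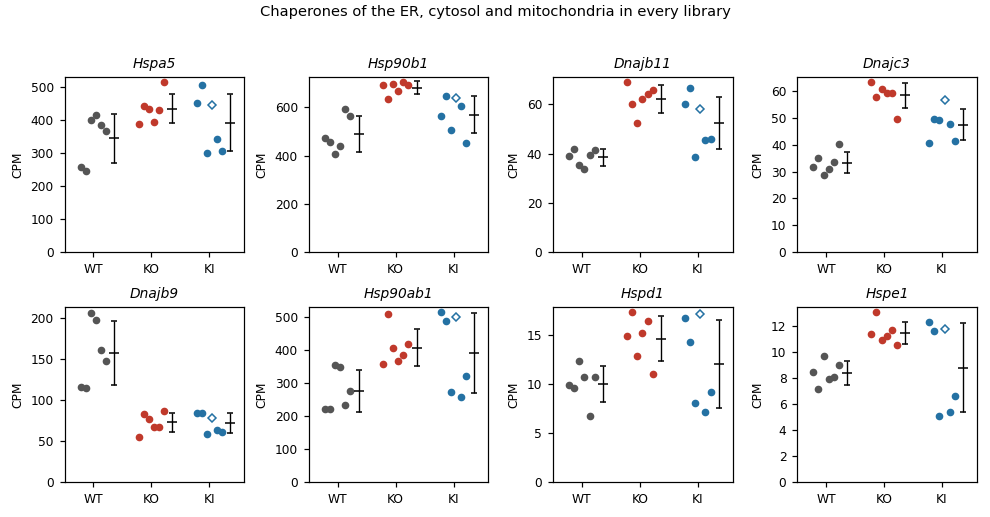
Level (CPM) of 5 ER chaperone genes, cytosolic Hsp90ab1 and the mitochondrial chaperonin genes Hspd1 and Hspe1 in each library, with the mean and SD as black bars; the open diamond is the library labelled KI 4. Hsp90b1, Dnajb11, Dnajc3, Hsp90ab1 and Hspe1 lie above WT in every KO library, and Dnajb9 lies below WT in every KO and KI library.

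The core stress chaperones were a list of 14 members of the cytosol, the ER and the mitochondria. In KO 4 of them rose and 0 fell, where 16.4% of all genes rose and 13.5% fell. In KI 1 rose and 0 fell, against 16.1% and 15.4% of all genes. The list's median log2 fold change was 0.28 in KO and 0.14 in KI, against 0.03 and 0.05 over all genes. Without the library labelled KI 4, 0 of the list rose in KI. With close pairs summed 0 rose in KO, against 7.94% of all genes, and 0 in KI, against 5.32%. In KO the count was 2 at an adjusted p under 0.05 and without KO 2, KO 5 or WT 5, 3 with DESeq2, and 6 with only the genotypes compared. Summed, the list took 4203 to 4943 CPM in WT, 4534 to 6165 CPM in KO and 3852 to 7014 CPM in KI.

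Hsp90ab1 (ENSMUSG00000023944), the constitutive cytosolic HSP90, lay at 219.9 to 354 CPM (median 254) in WT, 358 to 508 CPM (median 395) in KO and 258 to 513 CPM (median 403) in KI. In WT it was high in WT 3 and WT 4, the highest of which (354 CPM) lay just under the lowest KO library, and KI 3, KI 5 and KI 6 fell inside the WT range. This gave a log2 fold change of 0.56 ± 0.19 in KO (adjusted p = 0.0318) and 0.51 ± 0.19 in KI (adjusted p = 0.0504). The KI call was lost without KI 1, KI 2, the library labelled KI 4, WT 1, WT 2 or WT 5 (adjusted p = 0.118 without the library labelled KI 4), and both calls were lost with close pairs summed (adjusted p = 0.134 and 0.369). Hsp90aa1, the form that testis expresses most, was not called, at 0.18 ± 0.18 in KO and 0.16 ± 0.18 in KI, with KI 1 and KI 2 the highest libraries (3359 and 3623 CPM).

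Hspd1 and Hspe1, which encode HSP60 and its HSP10 lid, lie head to head on chromosome 1 and share their promoter. Hspd1 lay at 6.76 to 12.4 CPM (median 10.3) in WT, 11.02 to 17.3 CPM (median 15.02) in KO and 7.09 to 17.1 CPM (median 11.7) in KI. Hspe1 lay at 7.14 to 9.71 CPM (median 8.29) in WT, 10.5 to 13.04 CPM (median 11.3) in KO and 5.10 to 12.3 CPM (median 9.12) in KI. KO overlapped with WT for Hspd1 through KO 6 and not for Hspe1. Both were higher in KO, by 0.55 ± 0.20 for Hspd1 (adjusted p = 0.0539) and 0.45 ± 0.19 for Hspe1 (adjusted p = 0.0957) on the log2 scale, and were not called in KI (0.27 ± 0.20 and 0.07 ± 0.19). In KI the libraries fell into a high set (KI 1, KI 2 and the library labelled KI 4) and a low set (KI 3, KI 5 and KI 6) for both genes. The KO rise of Hspd1 was lost without KO 2, KO 5 or WT 5, that of Hspe1 in 10 of the 18 fits that left out 1 library and with DESeq2, and both with close pairs summed (adjusted p = 0.171 and 0.235).

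The remaining core members were not called in either genotype. Hspa8, the constitutive HSP70 of the cytosol, was 0.29 ± 0.21 in KO and 0.06 ± 0.21 in KI, and Hspa9, the mitochondrial HSP70, was 0.28 ± 0.16 and 0.26 ± 0.16. For the stress-induced genes, 9 to 39 counts per library stood behind Hspa1a (-0.36 ± 0.30 in KO and -0.24 ± 0.30 in KI) and 3 to 19 behind Hspa1b (0.56 ± 0.41 and 0.25 ± 0.42), which limits what could be detected. Dnaja1 and Dnajb1, the main cytosolic J proteins, were -0.11 ± 0.16 and 0.00 ± 0.17 in KO and -0.13 ± 0.16 and 0.03 ± 0.17 in KI.

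Among the J proteins, falls outnumbered rises in the B class. Of 13 J-protein B genes, 6 fell and 1 rose in KO, with the same counts in KI. Among all genes 13.5% fell and 16.4% rose in KO, and 15.4% and 16.1% in KI. The median log2 fold change of the B genes was -0.37 in KO and -0.51 in KI. With close pairs summed, 4 B genes fell and 1 rose in KO, and 4 fell and 0 rose in KI. In that fit 7.62% of all genes fell and 7.94% rose in KO, and 6.87% and 5.32% in KI. Besides those above, Dnajb4 (ENSMUSG00000028035), a cytosolic J protein, lay at 279.8 to 360.3 CPM (median 319) in WT, 146 to 233 CPM (median 201) in KO and 152 to 230.2 CPM (median 183) in KI. It did not overlap with WT in either genotype, at -0.73 ± 0.13 in KO (adjusted p = 0.000214) and -0.78 ± 0.13 in KI (adjusted p = 9.28e-05). The sixth B gene to fall was Dnajb14, an ER membrane protein named after its values were seen (-0.54 ± 0.21 and -0.68 ± 0.21), and it lost both calls with close pairs summed (adjusted p = 0.225 and 0.317). Of the 4 A genes Dnaja4 was the 1 to fall (-0.55 ± 0.16 in KO and -0.79 ± 0.17 in KI, adjusted p = 0.0178 in KO and 0.00106 in KI), also named after its values were seen, and 0 rose. Its KO call was lost with close pairs summed (adjusted p = 0.103).

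The 28 J-protein C genes, whose J domain sits in proteins of many other designs, split more evenly. In KO 8 rose and 5 fell, where 16.4% of all genes rose and 13.5% fell. In KI 9 rose and 6 fell, against 16.1% and 15.4% of all genes. With close pairs summed, 5 C genes rose and 3 fell in KO, against 7.94% and 7.62% of all genes. In KI 2 then rose and 3 fell, against 5.32% and 6.87% of all genes. Dnajc19 (ENSMUSG00000027679), a subunit of the import motor of the inner mitochondrial membrane, lay at 16.8 to 25.3 CPM (median 22.4) in WT, 10.2 to 14.6 CPM (median 12.8) in KO and 9.11 to 13.2 CPM (median 11.2) in KI. The ranges did not overlap with WT, and the log2 fold change was -0.81 ± 0.12 in KO (adjusted p = 4.75e-05) and -0.98 ± 0.12 in KI (adjusted p = 4.09e-06). It thus moved against Hspd1 and Hspe1, which rose in KO.

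The largest rises were in the C class. Dnajc6 (ENSMUSG00000028528, auxilin), which uncoats clathrin vesicles with Hspa8, lay at 2.13 to 4.35 CPM (median 2.51) in WT, 4.46 to 6.63 CPM (median 5.63) in KO and 4.22 to 6.68 CPM (median 4.89) in KI, and its log2 fold change was 0.96 ± 0.18 in KO (adjusted p = 0.00032) and 0.82 ± 0.18 in KI (adjusted p = 0.00142). WT 3 (4.35 CPM) was the highest WT library and lay just under the KO range, and KI 2 and KI 5 lay inside the WT range. Dnajc28 (ENSMUSG00000039763) lay at 14.8 to 19.3 CPM (median 17.03) in WT, 25.5 to 39.3 CPM (median 29.2) in KO and 19.3 to 39.3 CPM (median 26.7) in KI, with log2 fold changes of 0.84 ± 0.15 (adjusted p = 0.00027) and 0.69 ± 0.15 (adjusted p = 0.0016). KO did not overlap with WT, and KI 3 met the highest WT library. Both genes kept their calls in both genotypes with close pairs summed.

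Dnajc22 was also higher, but with a median of 0.489 CPM in WT it rested on as few as 7 counts in a library. It reached 0.81 ± 0.27 in KO (adjusted p = 0.0307) and 0.79 ± 0.27 in KI (adjusted p = 0.0338), with overlapping libraries, and lost both calls with close pairs summed (adjusted p = 0.133 and 0.210). Dnajc14 (ENSMUSG00000025354), an ER membrane J protein, lay at 21.6 to 23.9 CPM (median 22.4) in WT, 29.8 to 38.9 CPM (median 32.7) in KO and 23.4 to 35.3 CPM (median 31.3) in KI, and rose by 0.57 ± 0.11 in KO (adjusted p = 0.000638) and 0.42 ± 0.11 in KI (adjusted p = 0.00738) on the log2 scale. Its KI call was lost with close pairs summed (adjusted p = 0.168). Dnajc5, the widely expressed cysteine-string protein, rose by 0.47 ± 0.12 in KO (adjusted p = 0.0076) and 0.37 ± 0.12 in KI (adjusted p = 0.0301), so that its direction was opposite to that of the testis form Dnajc5b. The KI call was lost with close pairs summed (adjusted p = 0.308).

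The other called C genes are given to account for each member and were named after their values were seen. On the log2 scale Dnajc16 and Dnajc11 rose in both genotypes, by 0.28 and 0.26 in KO and 0.33 and 0.34 in KI, and Dnajc13, an endosomal protein, rose in KI by 0.32 (0.22 in KO, adjusted p = 0.126). Dnajc9, a chaperone of histones H3 and H4, fell in both (-0.48 ± 0.15 in KO and -0.70 ± 0.15 in KI). Dnajc24, which takes part in making diphthamide, and Dnajc4 had log2 fold changes of -0.59 and -0.41 in KO and -0.55 and -0.56 in KI, all called. Dnajc21, a ribosome assembly factor, fell in KI (-0.62 ± 0.18, adjusted p = 0.0127) and was -0.35 ± 0.18 in KO (adjusted p = 0.165). Hspa13, an ER HSP70, was called lower at -0.30 in KO and -0.29 in KI, and at -0.24 without the library labelled KI 4 it was no longer called (adjusted p = 0.181). Hspa12a was 0.42 in KI (adjusted p = 0.12) and passed without that library (0.48, adjusted p = 0.0889). With close pairs summed, Dnajc9 kept both calls (adjusted p = 0.0565 in KO and 0.0365 in KI). The KO calls of Dnajc16, Dnajc11, Dnajc24, Dnajc4 and Hspa13 were lost (adjusted p = 0.250, 0.319, 0.1001, 0.203 and 0.248). So were the KI calls of Dnajc16, Dnajc11, Dnajc13, Dnajc24, Dnajc4, Dnajc21 and Hspa13 (adjusted p from 0.152 to 0.541). Hspa12a was not called in KI in that fit (adjusted p = 0.253).

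A pair of members varied more within genotypes than between them. Dnajc25 lay at 14.1 and 14.1 CPM in WT 5 and WT 6 and at 20.2 and 22.6 CPM in KI 1 and KI 2. Its median was 6.53 CPM in WT, 5.21 CPM in KO and 5.32 CPM in KI, and 348 of its 4542 exon bases overlap with another gene on its strand. Dnajc2 lay at 477 CPM in KO 1 and 297 and 319 CPM in WT 1 and WT 2, against medians of 185 CPM in KO and 158 CPM in WT. Neither was called in either genotype, and both were singled out after their values were seen.

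The genes around the chaperones were examined from lists of 70 genes, of which 67 were tested, and in KO 12 rose (17.9%, against 16.4% of all genes) and 9 fell (13.4%, against 13.5%), and in KI 11 rose (16.4%, against 16.1%) and 11 fell (16.4%, against 15.4%). With close pairs summed these were 3 and 5 in KO, where 7.94% of all genes rose and 7.62% fell, and 5 and 7 in KI, where 5.32% rose and 6.87% fell. The list of heat shock factors had 6 tested genes, of which Hsbp1 and Hsf2bp encode proteins that bind such factors. Of the 6, Hsfy2, a testis factor, fell in both genotypes (-0.48 ± 0.20 in KO and -0.73 ± 0.20 in KI, adjusted p = 0.0908 in KO and 0.00955 in KI). Its KO call was lost in 10 of the 18 fits that left out 1 library and with close pairs summed (adjusted p = 0.193). Hsf5 and Hsf2bp passed in KI at 0.37 ± 0.16 and 0.25 ± 0.10 (adjusted p = 0.0978 and 0.0884), and neither did so without the library labelled KI 4 (adjusted p = 0.108 and 0.113) or with close pairs summed (adjusted p = 0.357 and 0.376). Hsf1, the main activator of the stress response, was 0.03 ± 0.10 in KO and 0.09 ± 0.10 in KI, with no call. Hsf2 was -0.25 ± 0.16 and -0.33 ± 0.16 and passed in KI without that library (-0.42, adjusted p = 0.073). These last factors were named after their values were seen.

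Bag1, a nucleotide exchange factor for HSP70, showed the largest fall among 11 such factors. It lay at 415 to 589 CPM (median 516) in WT, 82.4 to 245 CPM (median 177) in KO and 96.2 to 177 CPM (median 134) in KI. The groups did not overlap with WT, and the log2 fold change was -1.59 ± 0.20 in KO (adjusted p = 4.45e-06 for any change and 0.176 past 1 log2 unit) and -1.92 ± 0.20 in KI (adjusted p = 0.00572 past 1 log2 unit). The KI call past 1 log2 unit was lost with close pairs summed (adjusted p = 0.406), while the fall of any amount was kept (adjusted p = 0.00128). Hyou1, the HSP110 of the ER, rose by 0.47 ± 0.14 in KO (adjusted p = 0.0154) and 0.34 ± 0.14 in KI (adjusted p = 0.0774), and both calls were lost with close pairs summed (adjusted p = 0.167 and 0.496). Its KI call was also lost without KI 3, KI 5, WT 1, WT 2, WT 4 or the library labelled KI 4 (adjusted p = 0.145 for the last). No other factor of the 11 was called in either genotype.

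Of 21 HSP90 cochaperones, 3 rose and 3 fell in KO, and 0 rose and 4 fell in KI. Among all genes 16.4% rose and 13.5% fell in KO, and 16.1% and 15.4% in KI. In KI without the library labelled KI 4, 0 of the 21 rose and 3 fell. Summing the close pairs left 0 of the 21 higher and 2 lower in each genotype. Over all genes that fit gave 7.94% higher and 7.62% lower in KO, and 5.32% and 6.87% in KI. Ppid, an HSP90-bound prolyl isomerase, lay at 55.3 to 71.97 CPM (median 64.1) in WT, 30.4 to 44.1 CPM (median 34.3) in KO and 30.7 to 46.7 CPM (median 37.2) in KI, with log2 fold changes of -0.85 ± 0.12 (adjusted p = 2.37e-05) and -0.75 ± 0.12 (adjusted p = 9.57e-05). Sugt1, an HSP90 adaptor, was at -0.70 ± 0.14 in KO (adjusted p = 0.00102) and -0.73 ± 0.14 in KI (adjusted p = 0.000578). Fkbp4 and Rpap3 passed in KO at 0.42 ± 0.17 and 0.35 ± 0.14, were not called in KI (0.33 ± 0.17 and 0.28 ± 0.14), and lost their KO calls with DESeq2 and with close pairs summed (adjusted p = 0.315 and 0.259).

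Immediate early genes, which respond within minutes to handling and stress, were read beside these lists. Of 10 tested, 4 rose and 0 fell in KO, and 7 rose and 1 fell in KI, with and without the library labelled KI 4. Among all genes 16.4% rose and 13.5% fell in KO, and 16.1% and 15.4% in KI. Summing the close pairs left 2 of the 10 higher in KO, 5 higher in KI and 0 lower. All genes then gave 7.94% higher and 7.62% lower in KO, and 5.32% and 6.87% in KI. Ier2 rose by 0.82 ± 0.27 in KO (adjusted p = 0.0307) and 1.15 ± 0.27 in KI (adjusted p = 0.00269), Btg2 by 1.05 ± 0.20 and 0.97 ± 0.20 (adjusted p = 0.000528 and 0.00101), and Fos by 1.05 ± 0.30 in KI (adjusted p = 0.0135), where it was 0.52 ± 0.31 in KO (adjusted p = 0.246). Nr4a1 fell in KI (-0.45 ± 0.18, adjusted p = 0.0781), a call lost in 8 of the 18 fits that left out 1 library, with close pairs summed (adjusted p = 0.251), with library totals (adjusted p = 0.178), with no low-count filter (adjusted p = 0.117) and with only the genotypes compared (adjusted p = 0.103). The KO call of Ier2 was lost with close pairs summed (adjusted p = 0.153) and with no low-count filter (adjusted p = 0.111). Their summed level lay at 56.7 to 81.2 CPM in WT, 58.9 to 89.8 CPM in KO and 65.0 to 82.7 CPM in KI, so that the sums overlapped, and their part in the chaperone values was not tested.

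**Figure D4:**
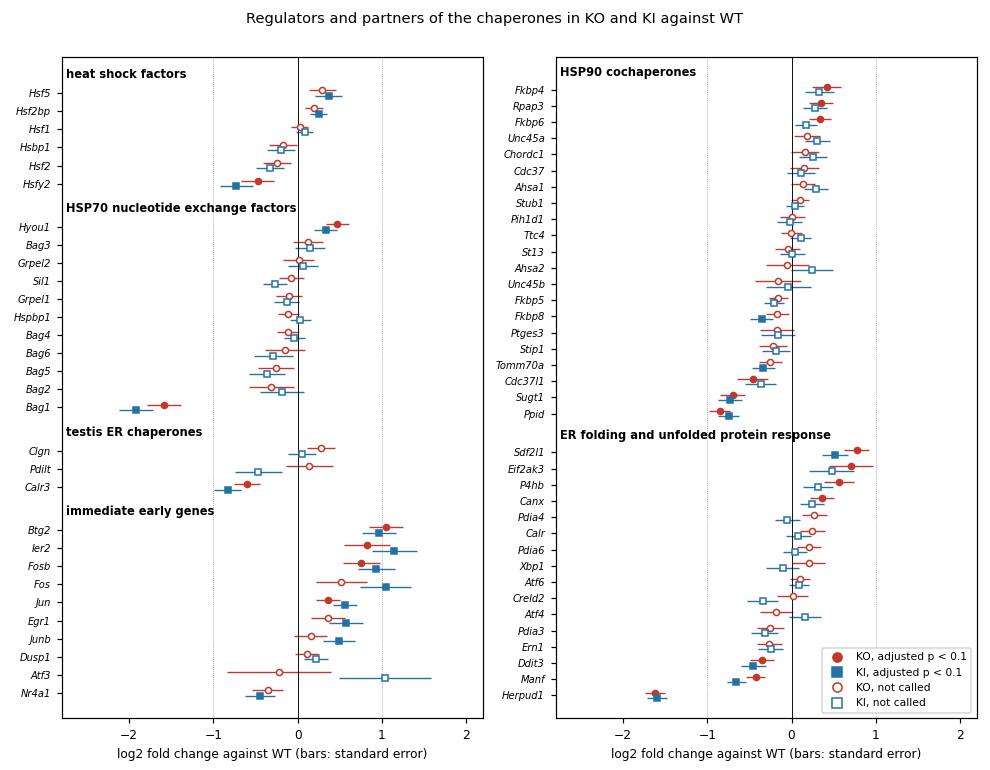
Log2 fold change against WT of the regulators and partners of the chaperones in KO (circles) and KI (squares), by list, with standard errors as bars; filled symbols passed an adjusted p of 0.1. Bag1 and Herpud1 lie near -1.6 or below in both genotypes, and the other genes outside the immediate early list lie between -1 and 1.

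KO and KI were compared with each other directly. With all libraries, edgeR called 0 of the 69 members higher or lower in KI than in KO (3 at an unadjusted p under 0.05), DESeq2 likewise called 0, and 0.076% of all genes were called higher and 0.0237% lower. Without the library labelled KI 4, 0 members were called, against 0.282% of all genes higher and 0.24% lower. The lowest adjusted p was that of Dnajc3, which was -0.30 ± 0.11 with all libraries (adjusted p = 0.916) and -0.36 ± 0.11 without the library labelled KI 4 (adjusted p = 0.258). Hsp90b1 was -0.26 ± 0.12 and -0.30 ± 0.13 (adjusted p = 0.503 without that library). Differences of this size between KI and KO were not detectable with these libraries, which does not show that the genotypes act alike on these genes.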

How the data were processed

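Total RNA libraries of round spermatids, 6 each labelled WT, KO and KI, were grouped by those labels. The authors used cutadapt 3.4 for trimming and STAR 2.7.8a for alignment on GRCm38, marked but did not remove duplicates, and deposited raw counts per GENCODE M18 gene made by strand with featureCounts (Subread 2.0.1). How reads that align to both a gene and its copy were counted was not stated. Symbols came from GENCODE M21. The members, the testis and core stress lists, the lists of heat shock factors, HSP70 nucleotide exchange factors, HSP90 cochaperones, ER folding genes, testis ER chaperones and immediate early genes, and the cell type markers were chosen with earlier results of these data known.

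Genes were filtered with filterByExpr and scaled by TMM, and all 18 libraries were fitted by genotype with edgeR 4.0.16 (R 4.3.3, limma 3.58.1). Any change was tested with glmQLFTest and a change past 1 log2 unit with glmTreat. P-values were adjusted by Benjamini-Hochberg over all 21058 genes tested, and an adjusted p under 0.1 was called. Standard errors are those of the fit. The text names Ddx25, the testis and core stress lists, members past 1 log2 unit, members called between KI and KO, the 8 largest called rises and falls among the members in KO and in KI, members overlapping these, and from each partner list the genes called past 1 log2 unit and otherwise the 2 largest called rises and falls. Others are said to be named after their values were seen. The script was tested on simulated data. Alternatives were DESeq2 1.42.0, its size factors, library totals alone, TMM without mitochondrial genes, other filters, an adjusted p under 0.05, a fit of only the genotypes compared, a replicate block, close pairs of libraries summed, and each library left out. The interval form of the threshold test was chosen after seeing the data.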

Additional observations from a re-analysis of the deposited data

Results flagged for a closer look

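Each named member was examined within each genotype for a library far from the other 5, in 102 groups of 6 libraries. Chance sets about 1 in 20 such groups apart if the libraries are separate, which the close pairs put in doubt. Here 2 were set apart, fewer than that rate gives. Dnajb3 lay at 181 CPM in KO 3, against 304 to 361 CPM in the other KO libraries. Dnajc5 lay at 9.41 CPM in WT 6, against 7.11 to 7.58 CPM in the other WT libraries.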

How the results depend on the processing

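Counts of members moved by over 1.5 times mainly when close pairs were summed without the library labelled KI 4. Then 6 rose and 8 fell in KO, 2 rose and 9 fell in KI, and 1 was lower past 1 log2 unit in each. With library totals alone, which move the median of all genes to 0.15 in KO and 0.20 in KI, 18 members rose in KI. Partner genes that rose in KO numbered 6 at an adjusted p under 0.05, 3 with close pairs summed, 19 with library totals and 5 with no filter, and those that rose in KI 7, 5, 23 and 7. Partner genes that fell with close pairs summed numbered 5 in KO and 7 in KI. Leaving out 1 library gave 1 to 2 members lower past 1 log2 unit in KO, 7 to 12 partner genes higher in KO, and -0.076 to 0.12 for Hspa2 between KI and KO.

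Changes of sign were seen in values near 0. With close pairs summed Hspa1l was 0.047 between KI and KO, and in KI Hspa1b was -0.091, Hspa8 -0.11 and Hspe1 -0.032. Dnaja1 was 0.012 in KO and 0.0064 in KI and Hsph1 0.11 in KO with library totals, and Hsph1 0.0011 with only the genotypes compared. Dnajb1 in KO was -0.0196 with DESeq2 and -0.0200 with its size factors, -0.0134 without mitochondrial genes, -0.0112 with close pairs summed, and -0.0274 with no filter. With 1 library left out the log2 fold change ranged from -0.065 to 0.093 in KO and -0.083 to 0.12 in KI for Dnajb1, from -0.054 to 0.20 and -0.014 to 0.27 for Dnajc5g, from -0.031 to 0.014 in KO for Hsph1, and in KI from -0.10 to 0.51 for Hspa1b, -0.0042 to 0.20 for Hspa4, -0.11 to 0.19 for Hspa8 and -0.046 to 0.19 for Hspe1. The cause was not tested.

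The replicate numbers did not pair the libraries, with correlations of same-numbered deviations from -0.50 to 0.54. The replicate block moved no count of members by over 1.5 times. In the block, Dnajb1 was -0.0201 in KO and -0.0128 in KI, and Hspe1 in KO and Hsf5 and Hsf2bp in KI were no longer called, and Dnajb13 in KI was (-0.52, adjusted p = 0.0678).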
